A study of Homo sapiens with 32 samples.

Results

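The GC-rich part of the genome was examined in U-DNA-Seq data from HCT116 cells, a human colorectal carcinoma line. The autosomes of GRCh38 were divided into 100 kb bins counted from the first position, and bins with at least 50% known bases were kept. Of 27614 such bins, 1810 had a GC content of 50% or more of their known bases, and these are called GC-rich bins here. The choice used the genome sequence alone and no measured value. U-DNA-Seq captures uracil-containing fragments of sonicated genomic DNA on a sensor protein, an inactive mutant of uracil-DNA glycosylase that carries a FLAG tag, and the deposited regions are those in which the log2 ratio of pulled-down over input coverage exceeded a threshold. The value used here is the covered share, which is the percentage of a bin's known bases that lay inside such regions.

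There were 14 HCT116 libraries from 7 conditions, each with 2 biological replicates, and 1 library of untreated K562 cells, a human leukaemia line. WT was HCT116 without transgene and without drug. In the other 6 conditions the cells expressed UGI, an inhibitor of uracil-DNA glycosylase. The paper describes stable lines with a retroviral transgene for UGI joined to EGFP, sorted for EGFP, and also transient transfection. The sample titles do not give which was used. NT_UGI was not treated, 5FdUR_UGI received 20 µM 5-fluoro-2'-deoxyuridine for 48 h, and RTX_UGI received 100 nM raltitrexed for 48 h. NT_UGI_MMR, 5FdUR_UGI_MMR and RTX_UGI_MMR were the same in mismatch repair (MMR) proficient HCT116 cells, to which a chromosome 3 had been added, so MMR status and the extra chromosome 3 cannot be told apart. UGI was present in every drug-treated condition, so neither drug was measured without it. Each drug was given at 1 dose, and the doses differed.

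Uracil reaches DNA when DNA polymerases incorporate dUMP in place of dTMP, opposite adenine, or when cytosine in DNA is deaminated. Thymidylate synthase makes dTMP from dUMP. 5FdUR, through its monophosphate, and raltitrexed, an antifolate, both inhibit this enzyme and raise the supply of dUMP relative to dTMP. Uracil-DNA glycosylase normally removes uracil from DNA, which UGI prevents. The monophosphate of 5FdUR is also built into DNA, and the authors state that their method detects fluorouracil as well as uracil. Regions after 5FdUR may therefore reflect either base, and these were not told apart here. GC-rich stretches of human chromosomes are in general dense in genes and CpG islands and replicate early in S phase, whereas AT-rich stretches are gene-poor and replicate late. MMR corrects mispaired bases after replication.

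The sequences below show what such DNA looks like where the conditions parted most. Each is the 200 bases at the centre of the longest stretch that was inside regions in every library of one side and in none of the other, within a bin described later. They are read from the plus strand of GRCh38, 5′ to 3′, and capitals mark thymine, the base that misincorporated uracil replaces.
Covered after 5FdUR, not after RTX (chr16:86585651-86585850): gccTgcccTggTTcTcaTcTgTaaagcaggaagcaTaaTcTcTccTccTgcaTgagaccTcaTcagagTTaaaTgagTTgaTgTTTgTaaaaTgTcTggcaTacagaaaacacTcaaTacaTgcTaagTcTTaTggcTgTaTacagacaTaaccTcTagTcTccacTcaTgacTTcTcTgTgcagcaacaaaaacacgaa
Covered in MMR proficient, not in MMR deficient cells, after 5FdUR (chr17:73706201-73706400): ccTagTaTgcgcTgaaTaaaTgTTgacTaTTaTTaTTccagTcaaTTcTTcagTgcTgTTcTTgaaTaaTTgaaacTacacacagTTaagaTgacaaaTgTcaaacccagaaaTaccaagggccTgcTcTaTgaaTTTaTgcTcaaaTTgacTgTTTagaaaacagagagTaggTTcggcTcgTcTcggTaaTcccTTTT
Covered in MMR deficient, not in MMR proficient cells, after 5FdUR (chr11:69959351-69959550): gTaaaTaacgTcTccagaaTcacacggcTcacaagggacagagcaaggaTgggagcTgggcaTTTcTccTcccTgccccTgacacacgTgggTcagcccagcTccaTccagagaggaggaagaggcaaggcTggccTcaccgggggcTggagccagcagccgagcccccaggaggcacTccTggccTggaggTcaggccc
The stretches that these lie in were 27.3, 7 and 46.9 kb long, in this order. The first sequence holds 54 thymines and 62 adenines and 1 CpG, and lies in no annotated gene. The second has 63 thymines, 62 adenines and 4 CpG, and the third 26 thymines, 46 adenines and 5 CpG, both outside annotated genes. The GC content was 42%, 37.5% and 64%, so the centre of a stretch could be far from 50% GC although its bin was above it.

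GC-rich bins made up 6.55% of the autosomal bins and held 22.7% of the annotated starts of protein-coding genes (4344 starts). Their median gene cover, the share of known bases inside protein-coding genes, was 72.2%, against 36.1% in the other 25804 bins. Their median exon cover was 10.2% against 0.641%, and their median CpG density was 22.2 against 8.01 per kb. Of the GC-rich bins, 413 (22.8%) held no protein-coding gene start, against 65.9% of the others. A total of 348 (19.2%) lay within 2 Mb of a chromosome end, against 1.65% of the others. Chromosome 19 held 254 of them, which is 43.4% of its bins, and chromosome 17 held 181, while chromosomes 13 and 18 held 13 and 11.

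The region files differed in ways that bear on all values. The total region length on the autosomes ranged from 485 to 543 Mb in the 8 drug-treated libraries and from 311 to 321 Mb in the 6 non-treated ones, because the submitters set the log2 threshold of each library so as to give similar totals within a condition. The lowest log2 value in a file was 0.25 and 0.14 in 5FdUR_UGI, 0.2 and 0.13 in 5FdUR_UGI_MMR, 0.25 in both RTX_UGI libraries, 0.27 and 0.25 in RTX_UGI_MMR, and 0.25 to 0.33 without drug. The all-autosome mean covered share was 17.6% to 19.7% with drug and 11.3% to 11.6% without. A covered share therefore says where the set amount of regions lay in a library, not how much uracil a bin held. The read depth is not known from these files, so no counting error can be given.

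After drug treatment the GC-rich bins were covered to a large extent, and without drug they were almost free of regions. The mean covered share over the 1810 bins was 48.3% and 45.7% in the replicates of 5FdUR_UGI, 30.1% and 15.3% in 5FdUR_UGI_MMR, 55.5% and 62.9% in RTX_UGI, and 33.6% and 48.6% in RTX_UGI_MMR. The 6 non-treated libraries lay between 0.0904% and 0.308%, with a median of 0.116%, and the K562 library was at 0.118%. The lowest of the 8 drug-treated values lay far above the highest of the 6 values without drug. The mean was 42.5% ± 15.3 (SD, n = 8) with drug and 0.143% ± 0.0814 (SD, n = 6) without, a difference of 42.4 percentage points (two-sided exact permutation test over 3003 splits, p = 0.000666). Since the totals differed, the share was also divided by that of all autosomal bins of the same library. This ratio was 0.841 in 5FdUR_UGI_MMR replicate 2 and 1.68 to 3.2 in the other drug-treated libraries, and at most 0.0269 without drug (p = 0.000666, same exact test). The GC-rich bins thus took 5.5% to 20.9% of all region bases with drug and 0.0522% to 0.176% without.

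**Figure D1:**
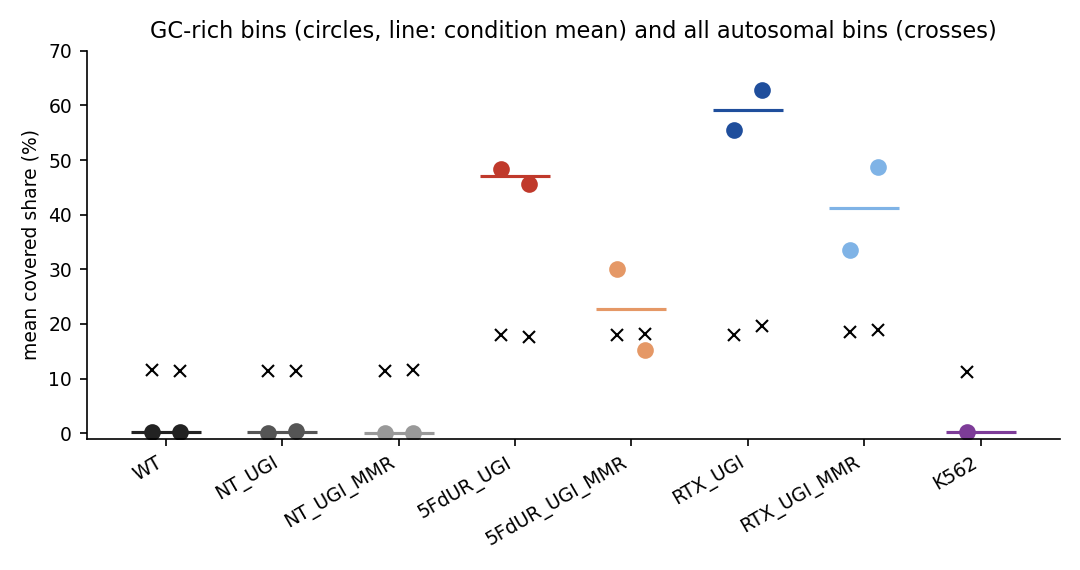
Mean covered share of the 1810 GC-rich bins (circles, with a line at the condition mean) and of all autosomal bins (crosses) in each of the 15 libraries, in percent. The circles lie above the crosses in all drug-treated libraries but 5FdUR_UGI_MMR replicate 2 and near 0 in every non-treated library.

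The distribution over bins was broad. With drug, 6.8% to 45.2% of the GC-rich bins held no region and 0.552% to 22.7% were covered to 95% or more. The highest share without any region was that of 5FdUR_UGI_MMR replicate 2, and the highest share of nearly full bins was that of RTX_UGI replicate 2. Without drug, 88.1% to 95.2% held no region and none reached 95%. In 713 GC-rich bins (39.4%) the lowest of the 8 drug-treated libraries was above the highest of the 6 non-treated ones, against 15.2% of all autosomal bins, and in 0 GC-rich bins was it the other way round, against 23.5% of all. Only 10 GC-rich bins were free of regions in all 15 libraries. Within the regions of GC-rich bins the mean log2 ratio was 0.242 to 0.488 with drug and 0.344 to 0.471 without, so these ranges overlapped.

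The mean covered share was higher in each GC class of 2% than in the one before, from 34% to 50% GC, in 7 of the 8 drug-treated libraries, and then took different courses. The exception, 5FdUR_UGI_MMR replicate 2, had its highest mean, 25%, at 44% to 46% GC. In 5FdUR_UGI replicate 2 the mean was 5.76% at 32% to 34% and 4.97% at 34% to 36% GC, and its highest, 55.6%, came at 58% to 60%. Non-treated libraries ran the other way, with their regions in AT-rich bins. In RTX_UGI, the 769 bins of 50% to 52% GC had means of 56.8% and 63.3%, and the 53 bins of 60% GC or more had 57.1% and 68.9%. In RTX_UGI_MMR the same classes had 40.2% and 53.9%, then 17.8% and 33.3%. In 5FdUR_UGI_MMR they had 32.1% and 16.9%, then 14.3% and 5.19%. The 5FdUR_UGI replicates parted, with 54.4% and 45.9% at 50% to 52% GC and 29.6% and 47.8% at 60% or more. Thus both MMR proficient conditions were lower in the GC-richest class than in the first class in both replicates, and RTX_UGI was not in either. The cut at 50% marked no step: the 249 bins of 49.5% to 50% GC had means of 21.1% to 58.3% in the drug-treated libraries, and the 196 bins of 50% to 50.5% GC had 18.2% to 64.2%.

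**Figure D2:**
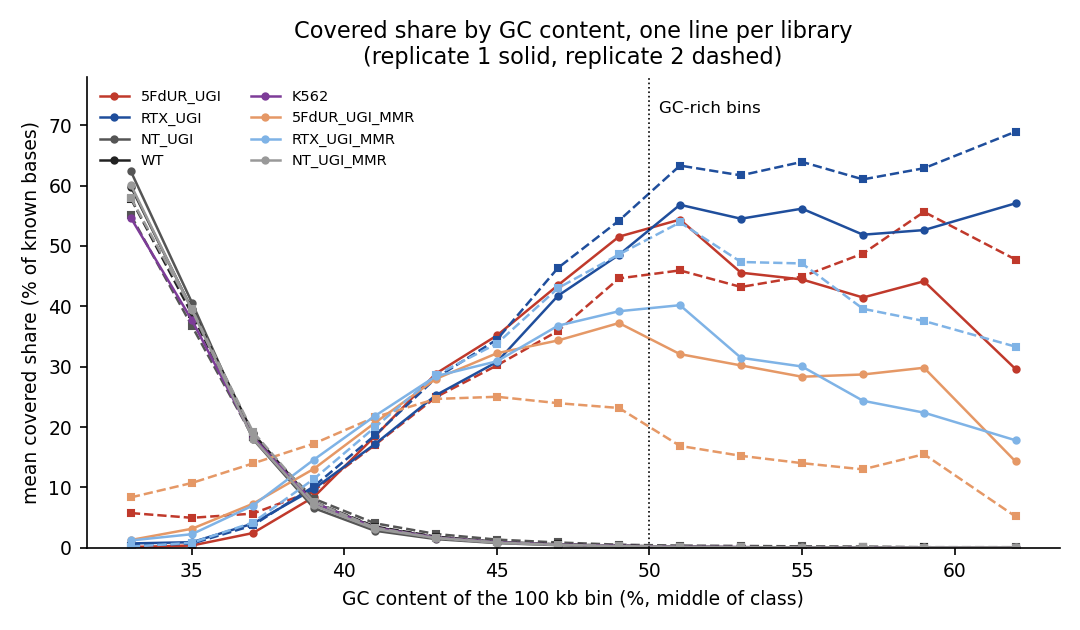
Mean covered share (percent) of autosomal 100 kb bins by GC class, 1 line per library, with replicate 1 solid and replicate 2 dashed. The dotted line marks 50% GC, right of which RTX_UGI stays between 51.9% and 68.9% while both MMR proficient drug-treated conditions decline.

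Over all GC-rich bins, the mean covered share was 34.8% ± 15.3 (SD, n = 4) after 5FdUR and 50.2% ± 12.5 (SD, n = 4) after RTX. The ranges overlapped, and the difference was -15.3 percentage points (two-sided exact permutation test, 70 splits, p = 0.143). Labels were permuted across both MMR states, so the spread between MMR states counted as spread within a drug. This p therefore cannot be set beside that of the MMR states below. The difference between the drugs was -8.8 without 5FdUR_UGI_MMR replicate 2. Within MMR deficient cells the replicates did not overlap, at 47% after 5FdUR and 59.2% after RTX, nor within MMR proficient cells, at 22.7% and 41.1%. Comparing MMR states, the mean after drug was 31.9% ± 13.7 (SD, n = 4) in proficient and 53.1% ± 7.74 (SD, n = 4) in deficient cells. The difference, averaged over the drugs, was -21.2 percentage points, -24.3 after 5FdUR and -18.1 after RTX, with no overlap of replicates within either drug. Labels were permuted within each drug, which allows 36 splits and no p below 0.0556, and the exact permutation p was 0.0556, so with this way of permuting the difference could not pass the threshold. Without drug, the means were 0.11% in NT_UGI_MMR and 0.199% in NT_UGI, and the replicates overlapped.

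To compare bins at equal GC, the mean of all autosomal bins in the same 1% GC class and the same library was subtracted from each covered share. What remains is the GC-adjusted value, in percentage points, and it was tested in each bin with limma over all 22502 autosomal bins whose mean covered share in the drug-treated libraries reached 1%, with Benjamini-Hochberg adjustment over all of them and a threshold of 0.05. Of the GC-rich bins, 1793 of 1810 were tested. Between 5FdUR and RTX, 1382 of them (77.1%) were called, against a background of 56% over all bins tested. In 553 (30.8%) the GC-adjusted value was higher after 5FdUR, where the background was 31.8%, and in 829 (46.2%) it was lower, where the background was 24.2%. The share called higher was thus near the background and the share called lower above it. The GC classes of GC-rich bins hold no other bins, so GC-adjusted differences cancel out over all GC-rich bins by construction. These shares therefore cannot show whether the GC-rich bins as a set leaned towards either drug. They describe only how the calls were spread among these bins. In MMR deficient cells alone 18.9% were called higher (10.2% of all bins) and 30.2% lower (12.9%), and in MMR proficient cells alone 24.6% higher (31.2%) and 34.6% lower (23.6%). Whether the states differed in these shares was not tested. The median difference was 51.4 points in the bins called higher and -35.8 points in those called lower. Its median size over the tested GC-rich bins was 33.4 points, against 14.7 over all bins tested. Levels differed too, with a mean covered share after drug of 42.5% in GC-rich bins and 16.6% in the other autosomal bins. These sizes and shares called were not compared at an equal level.

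The covered shares themselves gave the same direction for most bins called higher after 5FdUR. Subtracting class means shifts differences between the drugs towards 5FdUR, because the class means of 5FdUR minus those of RTX were -20.2 to -3.77 points in GC-rich bins. Even so, the mean covered share was higher after 5FdUR in 541 of the 553 bins called higher. It was lower in 829 of the 829 called lower, but the negative differences of class means made that certain. The covered shares of the 4 libraries of each drug did not overlap in 251 of the former (45.4%, against 42.2% of all autosomal bins called higher) and 418 of the latter (50.4%, against 64.6% of all called lower). Median covered shares of the bins called higher were 40.2% to 80.3% in the 5FdUR libraries and 7% to 12.2% in the RTX libraries. For the bins called lower they were 0% to 37% and 40.4% to 91.7%. With no adjustment for GC, 361 bins were called higher and 970 lower. Within the MMR deficient cells alone 881 bins were called (49.1%, background 23.1%), and within the MMR proficient cells alone 1061 (59.2%, background 54.8%).

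**Figure D3:**
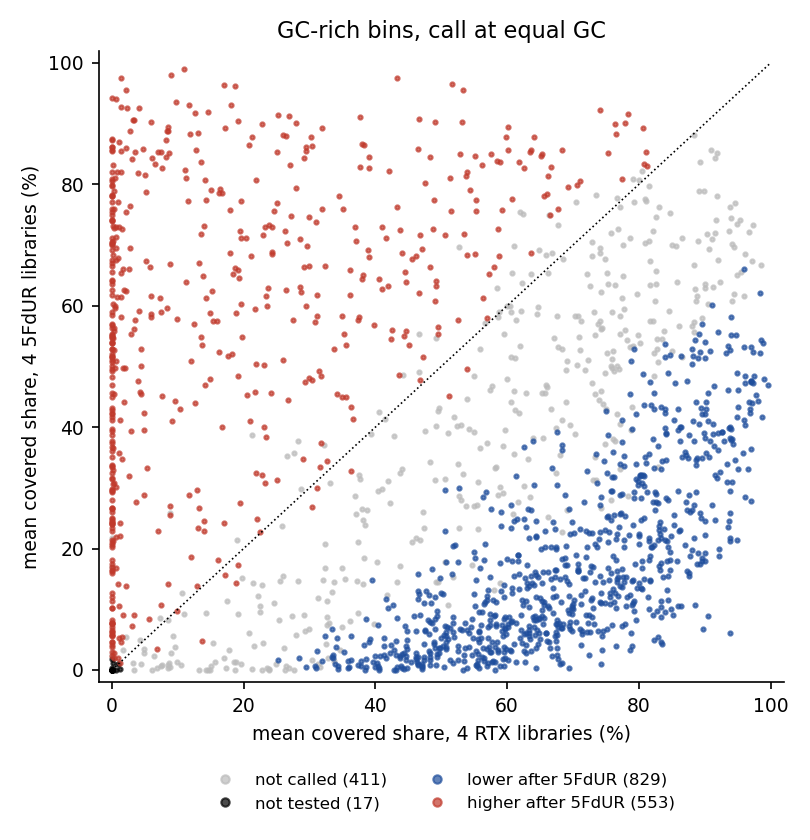
Mean covered share (percent) of each GC-rich bin over the 4 RTX libraries (horizontal) and the 4 5FdUR libraries (vertical), coloured by the call at equal GC. The 553 bins called higher after 5FdUR include many at or near 0% after RTX, and the 829 called lower lie below the dotted line of equal shares.

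The bins called in the 2 directions differed in what they hold, although their GC content was alike, with medians of 52.2% for those higher after 5FdUR and 52.6% for those lower. A gene start was missing from 48.5% of the bins called higher and from 7.24% of those called lower. Median exon cover was 3.57% and 14.1%, and median gene cover 68.8% and 72.6%. CpG density had medians of 20.9 and 22.7 per kb. Bins within 2 Mb of a chromosome end were 25.9% of those called higher and 14.1% of those called lower. Neighbouring bins share their surroundings and often their regions, so these bins are not independent.

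The number of gene starts, a grouping chosen after the values were seen and given without a test, went with different levels after the drugs. In the 413 GC-rich bins with no start of a protein-coding gene, the mean covered share was 43.2% and 59.3% in 5FdUR_UGI, 54.7% and 32% in 5FdUR_UGI_MMR, 30.1% and 35.2% in RTX_UGI, and 22.9% and 30% in RTX_UGI_MMR. In the 692 bins with 3 or more starts, it was 42% and 28% in 5FdUR_UGI, 11.1% and 3.93% in 5FdUR_UGI_MMR, 68.1% and 76.6% in RTX_UGI, and 34.5% and 55% in RTX_UGI_MMR. All 4 RTX libraries were higher in the gene-dense bins than in the bins without a start, and all 4 5FdUR libraries were lower. In 5FdUR_UGI replicate 1 this was by little, and at equal GC it went the other way, at -5.65 points without a start and -5.05 with 3 or more. The order was not even across the classes either, since the 705 bins with 1 or 2 starts had 57.4% in 5FdUR_UGI replicate 1 and 39% in RTX_UGI_MMR replicate 1, above both other classes. Of the tested bins without a start, 66% were called higher after 5FdUR and 14.8% lower, and of those with 3 or more starts 9.16% and 69.2%. In the bins with 1 or 2 starts these shares were 31.8% and 41.9%. Without drug the means of the 3 classes were 0.264%, 0.158% and 0.0553%, from none to 3 or more starts.

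Gene cover, CpG density and the distance to the chromosome end were then compared per library as the mean GC-adjusted value of GC-rich bins with the feature minus that of those without. For a gene cover of 50% or more (1303 against 507 bins) this contrast was -19.2 and -23.5 points in 5FdUR_UGI and -16.4 and -12.5 in 5FdUR_UGI_MMR. It was 0.851 and 2.37 in RTX_UGI and -3.48 and -0.122 in RTX_UGI_MMR. The groups did not overlap, at -17.9 ± 4.64 points (SD, n = 4) after 5FdUR and -0.0964 ± 2.48 (SD, n = 4) after RTX. For a CpG density above the median of the bin's GC class (903 against 907 bins) the contrast was -18.6 ± 5.32 points after 5FdUR and -4.82 ± 4.09 after RTX, with ranges of -23.8 to -11.6 and -9.89 to -1.17. For a place within 2 Mb of a chromosome end (348 against 1462 bins) it was 0.383 ± 4.27 points after 5FdUR and -12.1 ± 2.07 after RTX, with ranges of -5.77 to 4.13 and -14 to -9.21. The differences between drugs were -17.8, -13.8 and 12.5 points, and each had p = 0.0286 in a two-sided exact permutation test (adjusted p = 0.0286 over the 3 features), the smallest that 70 splits allow. Labels were again permuted across both MMR states, and permuting within them was not done. The features were chosen with earlier results of these data known, so these p-values are not independent support. Without drug all contrasts lay between -0.318 and 0.247 points. The difference for CpG density was no longer called with regions of at least 5 kb only (p = 0.0571, exact), with a log2 value of at least 0.27 (p = 0.0857, exact), or without any 1 of the 4 RTX libraries (p = 0.0571, exact), which also ended the call for chromosome ends.

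**Figure D4:**
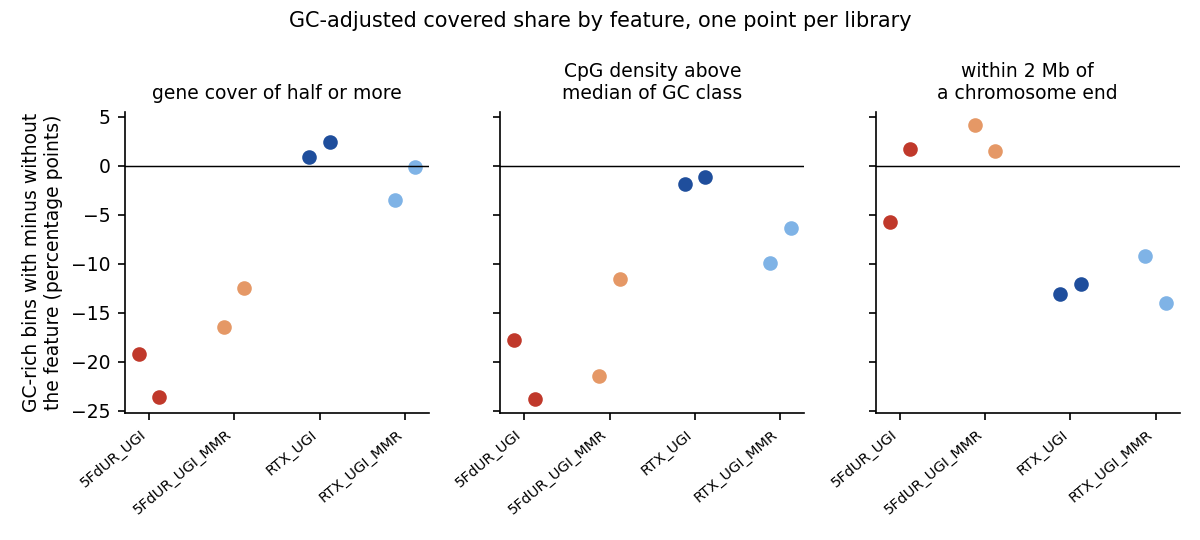
Mean GC-adjusted covered share of GC-rich bins with a feature minus that of those without (percentage points), 1 point per drug-treated library, 2 per condition. For gene cover the 4 5FdUR libraries lie between -23.5 and -12.5 points and the 4 RTX libraries between -3.48 and 2.37.

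Called bins lay in runs along the chromosomes. The 553 bins called higher after 5FdUR formed 318 runs of adjacent bins, 16 of them of 5 bins or more, and the 829 called lower formed 413 runs, 28 of them of 5 or more. The longest run of each direction is described here because of its length, chosen after the values were seen. On chromosome 9, 22 adjacent bins (chr9:133600001-135800000) were higher after 5FdUR. This stretch holds 23 protein-coding genes, the longest being VAV2, a guanine nucleotide exchange factor, COL5A1, which encodes a chain of type V collagen, and RXRA, a retinoid X receptor. Its mean covered share was 52% and 85.4% in 5FdUR_UGI, 82.6% and 59.8% in 5FdUR_UGI_MMR, and 7.95% to 15.9% in the 4 RTX libraries. After 2 further bins followed 16 bins that were lower after 5FdUR (chr9:136000001-137600000), with 77 protein-coding genes. There the RTX libraries had 36.6% to 85.4%, 5FdUR_UGI had 28.3% and 32.2%, and 5FdUR_UGI_MMR had 2.11% and 0.25%. 5FdUR_UGI replicate 1 was under 10% in 5 of the 22 bins of the first run. The drugs thus changed order across 200 kb. The last 4 bins of the first run held 2 to 4 gene starts each and the first 3 of the second run 1 or 2, and bins with 5 or more starts came only further along the second run.

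**Figure D5:**
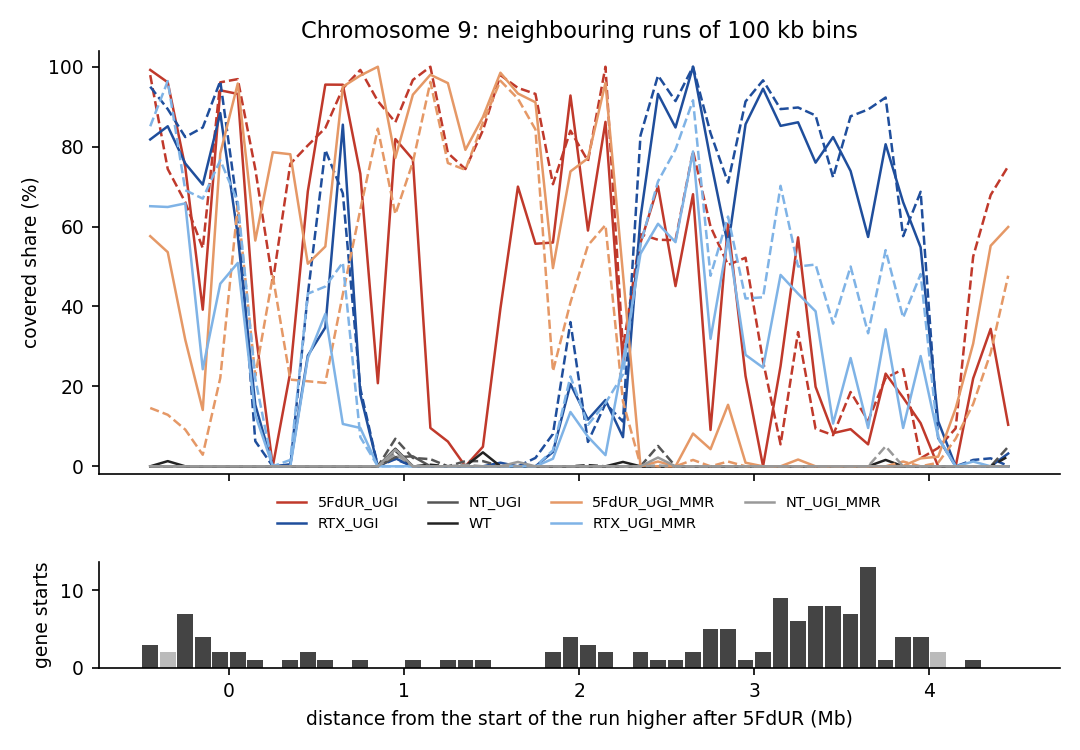
Covered share (percent, upper panel) of consecutive 100 kb bins on chromosome 9 in the 14 HCT116 libraries, replicate 1 solid and replicate 2 dashed, and the number of protein-coding gene starts per bin (lower panel, GC-rich bins dark), against the distance in Mb from the start of the run that was higher after 5FdUR. All 4 RTX libraries lie under 10% in 13 of the 22 bins of that run, and above both 5FdUR_UGI_MMR libraries in 16 of the 16 bins of the run that follows.

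The longest run called lower after 5FdUR had 23 bins on chromosome 19 (chr19:17200001-19500000) and 86 protein-coding genes, MYO9B, GATAD2A and CRTC1 being the longest. Its mean covered share was 7.34% ± 10.3 (SD, n = 4) after 5FdUR and 58.6% ± 26.7 (SD, n = 4) after RTX. A further run of 13 bins on chromosome 19 (chr19:44700001-46000000) spans MARK4, OPA3 and ERCC1, the last a subunit of the endonuclease of nucleotide excision repair. It had 8% ± 12.5 after 5FdUR and 61.8% ± 28.7 after RTX. In both runs the 5FdUR_UGI_MMR libraries were at 0.23% or less, and RTX_UGI_MMR replicate 1, at 22.6% and 21.6%, was close to 5FdUR_UGI replicate 1, at 21.9% and 26.3%.

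The 5 bins with the largest GC-adjusted difference in favour of 5FdUR were covered almost fully after it and hardly at all after RTX. The first (chr16:86500001-86600000) holds FOXF1 and FOXL1, forkhead transcription factor genes of mesenchyme development, and MTHFSD. Its covered share was 90.9%, 100%, 99.4% and 100% in the 5FdUR libraries and 0%, 3.5%, 1.9% and 0% in the RTX libraries, and the GC-adjusted difference was 115 points (SE 6.27, limma adjusted p = 9.28e-05). The second lies in SORCS2, a neuronal sorting receptor (chr4:7200001-7300000, 92.8% ± 11.6 against 1.35% ± 1.57, SD, n = 4 each). The third lies in CELF4, an RNA-binding protein of neurons (chr18:37300001-37400000, 94.2% ± 10.5 against 0% in all 4 RTX libraries). The others lie in TSNARE1 (chr8:142300001-142400000, 92.6% ± 3.61 against 4.08% ± 2.98) and over KIF25, a kinesin gene, and FRMD1 (chr6:168000001-168100000, 94.1% ± 4.09 against 0.575% ± 1.15). All 5 were picked among called bins in which the 4 libraries of each drug did not overlap, so that separation was part of the choice. The non-treated libraries were at 1.2% or less.

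The 5 bins with the largest difference in favour of RTX, picked by the same rule, were covered after RTX in both MMR states and not in 5FdUR_UGI_MMR. The first (chr1:44600001-44700000) holds parts of RNF220, a ubiquitin ligase gene, ARMH1 and TMEM53. Its covered share was 98.7%, 100%, 83.5% and 93.4% in the RTX libraries, 21.7% and 2.8% in 5FdUR_UGI, and 0% in both 5FdUR_UGI_MMR libraries, a GC-adjusted difference of -73.4 points (SE 4.43, limma adjusted p = 0.000106). Next came a bin in DNAH1, a dynein heavy chain of cilia (chr3:52300001-52400000, 4.25% ± 4.91 after 5FdUR against 83.5% ± 19 after RTX, SD, n = 4 each). A bin on chromosome 15 (chr15:40900001-41000000) holds part of INO80, a chromatin remodelling ATPase, with DLL4, a Notch ligand, and VPS18, and had 8.93% ± 12.2 against 90.5% ± 10.4. A second bin on chromosome 3 (chr3:49800001-49900000) with TRAIP, a ubiquitin ligase of the replication fork, MST1R, a receptor tyrosine kinase, and CAMKV had 4.55% ± 5.7 against 83.3% ± 16.7. The fifth (chr1:156500001-156600000) holds IQGAP3, the transcription factor gene MEF2D, and NAXE, and had 10.7% ± 17.7 against 88.6% ± 13.6. All 5 were at 0% without drug.

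Chromosomes differed. Among those with at least 20 GC-rich bins, the mean GC-adjusted value was most in favour of 5FdUR on chromosome 4 (45 bins), where it ranged from 11.8 to 27.3 points in the 5FdUR libraries and from -18.9 to -7.18 in the RTX libraries. Chromosome 21 (40 bins) followed, with 2.39 to 6.55 and -23.9 to -10.4 points. It was most in favour of RTX on chromosome 19 (254 bins), with -24.9 to -11.3 and -11.9 to 5.41 points, where the ranges overlapped, and on chromosome 17 (181 bins), with -11 to -4.42 and 3.52 to 8.98 points, where they did not. On chromosome 19, 30 bins were called higher after 5FdUR and 162 lower. On chromosome 4, 26 were higher and 9 lower. In covered shares, chromosome 19 had 16.5% ± 13.3 after 5FdUR and 49.2% ± 20.5 after RTX, and chromosome 4 had 56.2% ± 14.2 and 34.2% ± 8.39 (SD, n = 4 each).

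Gene families were described by the bin that holds the annotated gene start, with no test. Genes that start in the same bin share its value, and the 4344 protein-coding genes that start in GC-rich bins lay in 1397 bins. Counts of genes are therefore not counts of separate bins. Over all 4316 protein-coding genes whose start lay in a tested GC-rich bin, 12.6% lay in bins called higher after 5FdUR and 65.3% in bins called lower, and the median GC-adjusted difference was -28.3 points. Of 13 genes of the proteasome (PSM symbols), in 12 bins, 0 lay in a bin called higher and 11 in a bin called lower, with a median of -35.4 points. PSMD3, a subunit of the regulatory particle, started in a bin covered to 19.3% ± 32.5 after 5FdUR and 90% ± 14.7 after RTX, and PSMB10, a subunit of the immunoproteasome, in one at 9.08% ± 13.8 and 72% ± 27.3 (SD, n = 4 each). Of 8 genes for RNA polymerase II subunits (POLR2), 3 lay in bins called lower and 0 in bins called higher, with a median of -9.06 points. Of 10 complex I genes (NDUF), 4 lay in bins called lower and 2 in bins called higher. The bin of NDUFS6 had 79.8% ± 17.9 after 5FdUR and 0% in all RTX libraries. Of 71 zinc finger genes (ZNF), 41 lay in bins called lower and 18 in bins called higher, with a median of -24.1 points. The 72 ZNF genes of GC-rich bins, tested or not, lay in only 47 bins. ZNF423 had 56.3% ± 33.1 after 5FdUR and 0% after RTX, and ZNF683 16.4% ± 25.3 and 84.7% ± 16.7.

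Of 12 collagen genes (COL), 5 lay in bins called higher after 5FdUR and 5 in bins called lower, with a median of 2.65 points. The bin of COL5A1 had 85.7% ± 10.7 after 5FdUR and 0% in all 4 RTX libraries, a GC-adjusted difference of 101 points. COL18A1, the source of endostatin, had 60.2% ± 33.1 and 19.6% ± 12.5, while COL16A1 had 37.7% ± 42.2 and 92.9% ± 12.6. Of 5 genes for calcium channel subunits (CACNA), 1 lay in a bin called higher and 2 in bins called lower. CACNA1B, the pore of N-type channels, had 30.2% ± 16.1 and 0.7% ± 0.825, and CACNA1G, the pore of a T-type channel, had 24.8% ± 28.6 and 91.6% ± 12.3 (SD, n = 4 each).

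MMR status after 5FdUR gave 440 called GC-rich bins of 1793 (24.5%), near the background of 23.2%. In 171 (9.54%, background 14.9%) the GC-adjusted value was higher in MMR proficient cells, and in 269 (15%, background 8.28%) it was lower. Here too the GC-adjusted differences cancel out over all GC-rich bins, so these shares cannot show a lean of the whole set. The 269 were also lower in covered share in every case, which the negative differences of class means given below made certain. Their replicates did not overlap in covered share in 269 (100%, against 99.8% of all autosomal bins called lower). Of the 171, only 114 were higher in covered share too, and 57 were not, since the class means of proficient minus deficient cells were -28.9 to -20.8 points. Bins lower in proficient cells had median covered shares of 64% to 96.2% in the RTX libraries and those higher had 4.7% to 10.4%. With no adjustment for GC, 14 bins were called higher and 492 lower. The count of 440 was 173 without 5FdUR_UGI_MMR replicate 2 and 718 without 5FdUR_UGI replicate 2.

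The bins that were most strongly lower in proficient cells went from nearly full to nearly empty. A bin upstream of and including the start of ANO1, a calcium-activated chloride channel gene (chr11:69900001-70000000), was covered to 96.9% and 94.3% in 5FdUR_UGI and to 4% and 0% in 5FdUR_UGI_MMR. Its GC-adjusted difference was -72.8 points (SE 6.57, limma adjusted p = 0.002). In RTX_UGI it was at 99.9% in both replicates, and in RTX_UGI_MMR at 51.7% and 70.8%. A bin with the TNF receptor genes TNFRSF8 and TNFRSF1B (chr1:12100001-12200000) had 99% and 94.7% against 12.9% and 0%. In the other direction, a bin without a protein-coding gene (chr17:73700001-73800000) had 0% and 44.3% in 5FdUR_UGI and 90.8% and 84.9% in 5FdUR_UGI_MMR. Its difference was 91.3 points (SE 15.9, limma adjusted p = 0.0113). A bin over UNC79 and PRIMA1 (chr14:93700001-93800000) had 0.4% and 45.4% against 94.7% and 78.5%, and one in ZNF423 (chr16:49600001-49700000) had 0% and 49.2% against 82.9% and 70.5%. In these 3 bins the 5FdUR_UGI replicates were far apart, and the RTX libraries were at 0.4% or less.

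MMR status after RTX gave 20 called GC-rich bins (1.12%, background 1.13%), 3 higher and 17 lower in proficient cells. All calls were lost when any 1 of the 4 RTX libraries was left out. With no adjustment for GC, 0 bins were called higher and 42 lower. The strongest was a bin with CARD10, LGALS2 and CDC42EP1 (chr22:37500001-37600000), at 73.6% and 84.3% in RTX_UGI and 1.2% and 15.9% in RTX_UGI_MMR (GC-adjusted difference -52.8 points, SE 5.39, limma adjusted p = 0.0177). It was followed by one with CACNA1G and ABCC3, a drug efflux transporter gene (chr17:50600001-50700000, 93% ± 0.99 against 23.2% ± 4.31), and one with PDGFB, a growth factor gene (chr22:39200001-39300000, 95.7% ± 0.212 against 26.4% ± 15.9, SD, n = 2 each). Higher in proficient cells were a bin with TRAF3, CDC42BPB and AMN (chr14:102900001-103000000, 28.8% ± 6.93 in RTX_UGI against 53.9% ± 20.1), one with RAPGEF1, PRRC2B and POMT1 (chr9:131500001-131600000, 20.9% ± 0.636 against 38.9% ± 18.6) and one with SPTB and PLEKHG3 (chr14:64700001-64800000, 46.5% ± 9.12 against 63.4% ± 9.9).

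Whether the MMR difference itself differed between the drugs was tested as an interaction in the same fit. It was called in 222 GC-rich bins (12.4%, background 11.5%), in 107 towards a more positive MMR difference after 5FdUR and in 115 towards a more negative one. The count was 0 without any 1 of the 4 RTX libraries, 3 with a log2 value of at least 0.27, and 498 without 5FdUR_UGI replicate 2. Without drug, 77 GC-rich bins reached a mean covered share of 1% and 0 were called between MMR states (background 0%), and 0 had an unadjusted p under 0.05 in limma. The bin with the largest such difference, not called, lies on chromosome 11 (chr11:2000001-2100000) and had 3.7% and 26.4% in NT_UGI against 3.5% and 0% in NT_UGI_MMR. A bin with WDR25 and BEGAIN (chr14:100500001-100600000) had 4.2% ± 3.96 against 0% in both, and bins with MYL3 and PTH1R (chr3:46800001-46900000) and in TAFA5 (chr22:48800001-48900000) had 1.5% ± 1.56 against 5.15% ± 0.354 and 0.75% ± 0.212 against 3.85% ± 4.17 (SD, n = 2 each).

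The likeness of libraries over the 1810 GC-rich bins was described by the correlation of GC-adjusted values across bins, which are not independent. Replicates had r = 0.967 in RTX_UGI, 0.888 in RTX_UGI_MMR, 0.877 in 5FdUR_UGI_MMR and 0.741 in 5FdUR_UGI. RTX_UGI and RTX_UGI_MMR libraries had 0.775 to 0.895. 5FdUR_UGI_MMR and RTX_UGI libraries had -0.555 to -0.493, against -0.298 to -0.213 over the other autosomal bins. The 5FdUR_UGI libraries had 0.201 to 0.787 with 5FdUR_UGI_MMR and -0.126 to 0.405 with RTX_UGI, and their replicates parted. Replicate 1 had 0.364 and 0.201 with 5FdUR_UGI_MMR, 0.388 and 0.405 with RTX_UGI, and 0.615 and 0.533 with RTX_UGI_MMR. It was thus nearer to every RTX library than to 5FdUR_UGI_MMR. Replicate 2 had 0.787 and 0.64 with 5FdUR_UGI_MMR, -0.126 and -0.114 with RTX_UGI, and 0.233 and 0.0609 with RTX_UGI_MMR. Non-treated conditions had replicate r of 0.491 to 0.621, over bins that were mostly at 0%.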

How the data were processed

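Bins and groups were those described above, and the bins, features and gene families were chosen with earlier results of these data known. The authors aligned reads to GRCh38 with BWA 0.7.17-r1194, processed the alignments with SAMtools 1.9-50 and Picard, left out reads without a unique place and blacklisted stretches, computed genome-scaled coverage in 100 bp bins with smoothing in deepTools 3.2.1, and deposited as regions, each with a log2 ratio of enriched over input coverage, the bins above a threshold. Sequencing used a HiSeq or a NovaSeq instrument, and which library went to which is not given in the sources used here. Wide smoothing joins neighbouring bins, and the tuned thresholds fix the total length, so only placement can be compared. Region ends fitted the chromosome lengths of the GRCh38 reference used here. Genes came from GENCODE release 44, of which protein-coding genes were used.

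Covered shares were computed from the 15 single-library files; 7 files of merged replicates served as an alternative. GC classes with under 50 bins were joined to a neighbour. Bins were tested with limma 3.58.1 (R 4.3.3, trend and robust settings), with a mean per condition. Named bins were the 5 (drugs), 3 (MMR after a drug) or 2 (MMR without drug) per direction with the largest difference among called bins without overlap, at most 1 per 1 Mb; 1 named bin and 1 sequence are not reported here. Scripts were tested on simulated data, where 44 of 100 bins shifted by 40 points and 91 of 100 shifted by 80 points were recovered. Far fewer bins were shifted there than were called in the data, so this cannot show whether the counts of called bins are too low. Alternatives covered thresholds, region length, known bases, GC limits and classes, scale, filters, chromosome 3, replicate number and leaving out each library. The 15 input and 2 mock samples were not analysed here.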

Additional observations from a re-analysis of the deposited data

Results flagged for a closer look

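Among the 6 non-treated libraries, NT_UGI replicate 2 stood apart, with a mean covered share of GC-rich bins of 0.308%, while the other 5 lay between 0.0904% and 0.121%. Its gap to the nearest library was 0.857 of the range. Of 10 groups of libraries examined in this way it was the only one with such a gap. With 10 groups examined such a gap can arise by chance, and how often was not tested. The 6 libraries came from WT, NT_UGI and NT_UGI_MMR, so they are not replicates of a single condition. All values are far below those of the drug-treated libraries.

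The MMR difference at equal GC differed between 5FdUR and RTX in 222 of the 1793 GC-rich bins tested, by the interaction term of the limma fit. The share of 12.4% is close to the 11.5% of all autosomal bins, and the calls were lost without any 1 of the 4 RTX libraries.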

How the results depend on the processing

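The differences in mean covered share between drug-treated and non-treated, 5FdUR and RTX, and MMR states after drug kept their direction under the 22, 16 and 16 settings tried, leaving out single libraries included, with ranges of 39.5 to 46.3, -20.8 to -8.8 and -24.9 to -17.4 points without 1 library. The exact permutation p was 0.000583 to 0.00163 for the first and 0.114 to 0.343 for the second. For the MMR states no setting allowed a p under 0.05, so the threshold shows nothing about stability there, and the merged files have no p. The MMR difference without drug was -0.197 to 0.0201 points without 1 library and changed sign without NT_UGI replicate 2. Of the GC-rich bins in which drug-treated and non-treated libraries did not overlap, 713 became 264 with regions of at least 5 kb only, 179 with a log2 value of at least 0.27 and 357 at 52% GC or more, fewer bins by construction, and 713 to 1036 without 1 library.

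For the contrast by CpG density the difference was -12 with regions of at least 5 kb and -11.7 with a log2 value of at least 0.27, both no longer called, and -16.2 to -12.1 without 1 library. For chromosome ends it was 7.07 at 52% GC or more, against 12.5, and 11.2 to 14.5 without 1 library, and for gene cover -19.6 to -16. The cause was not tested.

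The labels number 2 replicates per condition and give no shared origin. Deviations of replicates over the GC-rich bins correlated between -0.475 and 0.3 over the 6 pairs of drug-treated conditions. These values cannot show whether libraries of the same number shared an origin. The main results took them to share only a number, and the block is given as the alternative. Permuting within replicate number, as a block, left the differences at -17.8, -13.8 and 12.5 for gene cover, CpG density and chromosome ends with an exact permutation p of 0.0556, the smallest that 36 splits allow. With the number as a block in limma, the called bins were 1350 for the drugs, 370 for MMR after 5FdUR, 4 for MMR after RTX, 166 for the interaction and 0 without drug.

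Called GC-rich bins between 5FdUR and RTX, 1382, were 786 at 52% GC or more, 803 when called by non-overlap (44.8%, against 39.2% of all bins), and 881 in MMR deficient cells alone, an alternative chosen after seeing the data. For MMR after 5FdUR, 440 became 186 with a log2 value of at least 0.27, 217 at 52% GC or more, 1114 by non-overlap (62.1%, against 62.3%), and 173 to 718 without 1 library. The counts of 224 and 227 without an RTX_UGI library and 270 and 273 without an RTX_UGI_MMR library show how the pooled spread enters, since those libraries are not in that comparison. For MMR after RTX, 20 became 40 with regions of at least 5 kb, 0 with a log2 value of at least 0.27, 42 with no GC adjustment, 7 on the arcsine scale, 11 at 52% GC or more, 1207 by non-overlap (67.3%, against 60.2%), and 0 to 27 without 1 library. For the interaction, 222 became 3 with a log2 value of at least 0.27, 48 with no GC adjustment, 80 on the arcsine scale, 130 at 52% GC or more, and 0 to 498 without 1 library, and it has no non-overlap count. Without drug, 20 of 77 bins did not overlap (26%, against 33.7%). Where a condition was left with 1 library, it was assumed to vary like the others. Depth could not be examined.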
